A study of Mus musculus with 4 samples.

Results

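The circadian clock genes described here were the 10 genes *Per1*, *Per2*, *Per3*, *Cry1*, *Cry2*, *Dbp*, *Tef*, *Nr1d1*, *Nr1d2* and *Arntl*, chosen by their symbols from the 24391 genes of the count table. All 10 symbols were present, and all 10 genes passed the filter on low counts that left 12266 genes to be tested. Gene expression was measured by RNA-Seq in 4 libraries of Beko cells, 1 mouse leukemia line of pre-T cells in which Notch is always active. 2 libraries came from cells kept for 48 h in the γ-secretase inhibitor (GSI) DAPT, which prevents the release of the active Notch intracellular domain, and 2 from cells treated in the same way, washed and cultured for another 24 h without inhibitor. The labels give the dose as 10 mg/ml, while the methods of the study give it in μg/ml. By these methods, the old inhibitor was also washed away and replaced with fresh GSI at 24 h of the 48 h. Cells kept in GSI had thus been washed as well, and the wash named below is the final one, which removed the inhibitor. Every library had been exposed to GSI, and the cells after the final wash were also 24 h older in culture. Libraries of untreated cells were not analysed here. The return of Notch activity, the final wash and the time in culture therefore cannot be told apart. No source used here says whether the replicates came from separate cultures or at what clock hour cells were collected, and p-values measure the spread between these libraries, which may be technical.

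The mammalian clock is a feedback loop of transcription. ARNTL (also called BMAL1) and its partner CLOCK bind E-boxes and switch on the *Per* and *Cry* genes, whose proteins return to the nucleus and repress that same activity. In a further loop the nuclear receptors of the ROR family activate *Arntl* and the REV-ERB receptors, encoded by *Nr1d1* and *Nr1d2*, repress it. DBP and TEF are transcription factors of the PAR bZIP family that activate genes through D-boxes, and NFIL3 competes with them at the same element. *Per1* and *Per2* are also known to respond within a short time to serum, cAMP and glucocorticoids.

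The counts per library were between 13716199 and 36364200, replicate 1 being the deeper one in both conditions, and 3 counts corresponded to between 0.0881 and 0.223 CPM (the count of a gene relative to the size of its library, scaled by TMM factors). All 11 markers of T cells and their progenitors passed the filter, with a summed level of 6320 and 6970 CPM in GSI and of 6050 and 5990 CPM upon washout. Of these, *Ptcra* rose by 2.37 and *Dntt* fell by 1.62 on the log2 scale. Markers of other blood cells were low or at 0 in part, but *Cpa3* and *Kit* of the mast cell markers were not. *Ms4a1*, *Lyz2*, *Fcer1a* and *Hbb-b1* had 0 counts in every library. The summed level of the 4 myeloid markers was 48.9 and 38.0 CPM in GSI against 5.49 and 4.91 CPM upon washout, nearly all of it from *Itgam*. The 3 mast cell markers summed to 274 and 167 CPM against 45.7 and 30.5 CPM, the 3 erythroid markers to 12.0 and 10.4 CPM against 4.99 and 4.39 CPM, and the 3 B-cell markers to less than 0.6 CPM in each library. The part of these markers in the results below was not tested. In such bulk samples, fewer cells of a type and less RNA per cell cannot be told apart.

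Upon GSI washout the clock genes did not move as 1 group. *Per1*, *Per3* and *Dbp* fell past both thresholds of the study, a log2 fold change (log2 FC) beyond 1 in either direction with an adjusted p-value under 0.05. In edgeR and also in DESeq2, 0 of the 10 rose past both, and at an unadjusted p-value under 0.05 the only gene on the higher side was *Cry1*. Among all genes tested 11.7% were lower and 7.74% were higher past both thresholds. With the adjusted p-value alone, 7 clock genes were lower (*Per1*, *Per2*, *Per3*, *Cry2*, *Dbp*, *Tef* and *Arntl*), where 25.4% of all genes were, and *Cry1* was higher, where 27% of all genes were. *Nr1d1* and *Nr1d2* did not pass, and the libraries of the conditions overlapped in these 2 genes, as in 22.7% of all genes. The median log2 FC of the 10 genes was -0.62, with a range from -1.47 to 0.36, beside a median of -0.01 over all genes tested. In 7 of the 10 genes both washout libraries lay below both GSI libraries, which was so for 39.1% of all genes, and in 1 both lay above, which was so for 38.2%.

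Promoter windows are shown for the 3 genes that fell past both thresholds and for the gene that was higher, since these are the extremes of the group. RefSeq (GRCm38.p6) gave 12 windows for 9 of the 10 genes, each from 250 bases before to 50 bases after a start site, and *Per2* was the gene without one. This build differs from the mm9 build of the counts. Capitals mark every match, on either strand, to the E-box CACGTG, the E'-box CACGTT, the D-box TTATGTAA or its palindromic form TTACGTAA, the letters AGGTCA bound by ROR and REV-ERB receptors, and the RBPJ letters TGGGAA or TGAGAA.
Per1, chr11:69098699-69098998 (+ strand): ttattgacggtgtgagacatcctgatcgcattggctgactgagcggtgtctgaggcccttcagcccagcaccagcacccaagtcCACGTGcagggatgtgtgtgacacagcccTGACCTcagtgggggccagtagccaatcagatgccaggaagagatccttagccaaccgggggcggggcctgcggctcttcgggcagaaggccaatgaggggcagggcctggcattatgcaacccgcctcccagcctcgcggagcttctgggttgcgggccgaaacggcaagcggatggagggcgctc
Per3, chr4:151044616-151044915 (- strand): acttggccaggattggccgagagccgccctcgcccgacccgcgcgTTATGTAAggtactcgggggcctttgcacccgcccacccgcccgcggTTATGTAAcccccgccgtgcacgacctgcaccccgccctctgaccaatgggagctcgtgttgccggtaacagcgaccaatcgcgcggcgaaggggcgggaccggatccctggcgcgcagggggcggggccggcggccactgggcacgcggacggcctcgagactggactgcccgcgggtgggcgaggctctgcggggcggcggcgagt
Dbp, chr7:45704997-45705296 (+ strand): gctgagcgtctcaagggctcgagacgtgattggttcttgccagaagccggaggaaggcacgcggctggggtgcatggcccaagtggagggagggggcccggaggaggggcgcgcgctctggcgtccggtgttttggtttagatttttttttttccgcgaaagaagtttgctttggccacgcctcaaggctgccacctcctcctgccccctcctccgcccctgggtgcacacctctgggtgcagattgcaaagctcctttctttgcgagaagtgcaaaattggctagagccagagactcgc
Cry1, chr10:85185005-85185304 (- strand): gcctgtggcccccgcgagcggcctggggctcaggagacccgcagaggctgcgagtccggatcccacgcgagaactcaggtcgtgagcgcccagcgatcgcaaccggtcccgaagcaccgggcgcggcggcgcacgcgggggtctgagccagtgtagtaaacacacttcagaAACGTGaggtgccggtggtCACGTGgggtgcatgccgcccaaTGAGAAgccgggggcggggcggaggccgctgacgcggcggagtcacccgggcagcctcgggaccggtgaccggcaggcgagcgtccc

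Of all 32817 windows, 7.15% held the E-box, 4.69% the E'-box, 0.935% the D-box and 0.119% its palindromic form. The *Per1* window held an E-box at position -166 from the start. It was the upstream one of 2 windows listed for *Per1*, and the other held no E-box. The *Per3* window held 2 copies of the D-box, at positions -205 and -158, and was the only one of the 12 windows with this element. In *Cry1* an E'-box lay at position -79 and an E-box at -60. *Tef* held an E-box in both of its windows. None of the searched letters was found in the window of *Dbp*. The letters AGGTCA were found in windows of *Per1*, *Nr1d2* and *Arntl* (16.3% of all windows), and the letters TGGGAA in those of *Per1*, *Cry2* and *Tef* (25.6%). The TGGGAA match in *Per1* lay at position -217 of its other window, not shown here, and that in *Cry2* overlaps an E'-box. TGAGAA was found in windows of *Cry1* and *Tef* (20.2%). These are matches of letters only, with no measurement of binding.

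The 3 *Per* genes encode the PERIOD proteins, the repressors whose return closes the loop. *Per1*, on chromosome 11 from 68908719 to 68923462 (mm9), stood at 23.3 and 18.6 CPM under GSI and at 6.82 and 8.56 CPM after the wash. Both washout libraries lay well below both GSI libraries. This was a 2.77-fold decrease, with a log2 FC of -1.47 (SE 0.192, adjusted p = 0.00155 in edgeR's quasi-likelihood test). *Per3*, on chromosome 4 from 150377761 to 150418774, stood at 25.8 and 24.9 CPM under GSI and at 9.67 and 10.2 CPM after the wash. Its replicates were the closest of the 3, and its log2 FC was -1.35 (SE 0.130, adjusted p = 0.000608, edgeR), a 2.56-fold decrease. *Per2*, on chromosome 1 from 93312561 to 93355907, stood at 10.9 and 14.0 CPM under GSI and at 8.11 and 8.56 CPM after the wash. Here the groups did not overlap either, but the log2 FC of -0.57 (SE 0.191, adjusted p = 0.0457, edgeR) stayed above -1. The adjusted p-value of *Per2* rose to 0.272 when GSI replicate 2 was left out, to 0.135 for washout replicate 1 and to 0.0791 for washout replicate 2.

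**Figure D1:**
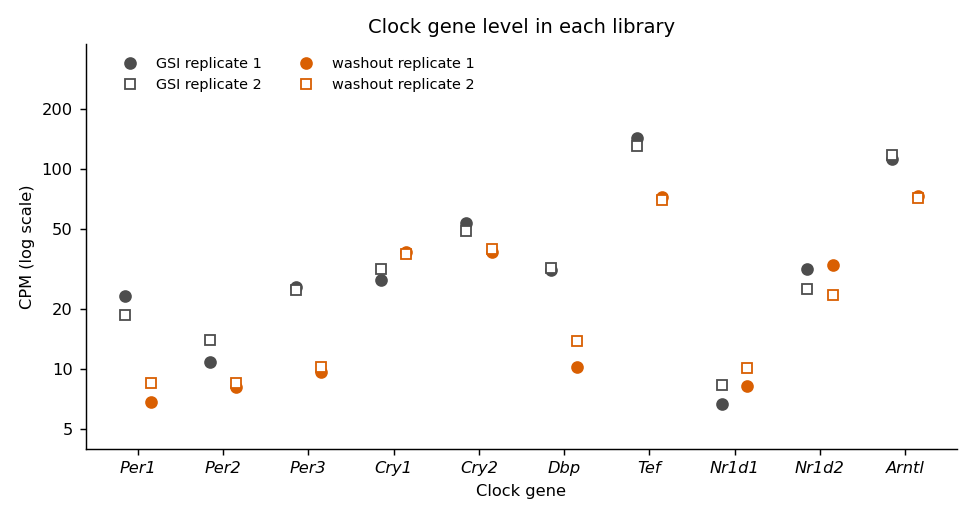
Level of each of the 10 clock genes in CPM (vertical axis, log scale), with GSI libraries in gray and washout libraries in orange, and replicate 1 filled and replicate 2 open. In *Per1*, *Per3* and *Dbp* the orange points lie well below the gray ones, whereas those of *Nr1d1* and *Nr1d2* overlap.

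The cryptochromes, the partners of the PERIOD proteins in repression, differed in direction. *Cry1*, on chromosome 10 from 84594447 to 84647799, stood at 27.8 and 31.5 CPM under GSI and at 38.6 and 37.4 CPM after the wash. It was 1.28-fold higher, with a log2 FC of 0.36 (SE 0.114, adjusted p = 0.0375, edgeR). *Cry2*, on chromosome 2 from 92243803 to 92274200, stood at 53.8 and 48.9 CPM under GSI and at 38.3 and 39.8 CPM after the wash, and its log2 FC was -0.40 (SE 0.103, adjusted p = 0.0190, edgeR). In the annotation 295 bases of its exons overlap *D930015M05Rik* on the other strand. Both changes are small and neither p-value held in every setting. Without GSI replicate 1 the adjusted p-value was 0.249 for *Cry1* and 0.140 for *Cry2*, without GSI replicate 2 it was 0.0632 and 0.0536, and without washout replicate 1 it was 0.0850 and 0.0557. In DESeq2 the adjusted p-value of *Cry1* was 0.0762 and that of *Per2* 0.0876. When libraries were scaled by their total counts the log2 FC of *Cry1* was 0.16 (adjusted p = 0.261, edgeR).

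Ratios of 2 genes within 1 library do not depend on the scaling, and 8 pairs were formed after the counts had been seen, so they are given without a test. With 2 libraries against 2, an exact permutation test could not go below p = 0.333. The ratio of *Cry1* to *Cry2* counts was 0.517 and 0.645 in GSI and 1.01 and 0.938 upon washout. In GSI cells *Cry2* thus gave more reads than *Cry1*, and upon washout the genes were about level in reads, without regard to their lengths. The ratio of *Per1* to *Per2* was 2.14 and 1.33 in GSI and 0.841 and 1 upon washout, and that of *Per2* to *Per3* was 0.421 and 0.562 against 0.839 and 0.839. The ratio of *Per1* to *Per3*, in contrast, overlapped between the conditions, with 0.903 and 0.747 in GSI and 0.705 and 0.839 upon washout. *Per1* and *Per3* thus kept their proportion within the spread of the replicates, and *Per2* gained relative to both.

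**Figure D2:**
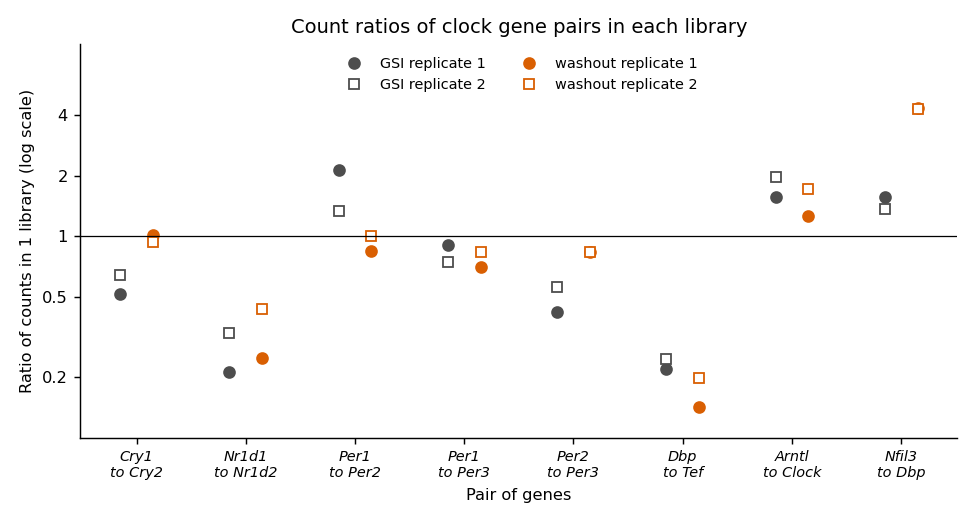
Ratio of the counts of 2 clock genes in the same library (vertical axis, log scale), with GSI libraries in gray, washout libraries in orange, replicate 1 filled and replicate 2 open. The ratios of *Cry1* to *Cry2* and of *Nfil3* to *Dbp* are higher in both washout libraries, and those of *Per1* to *Per3* overlap.

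*Dbp*, a PAR bZIP activator and a classic rhythmic output of the clock, lies on chromosome 7 from 52960458 to 52965525. It stood at 31.1 and 32.1 CPM under GSI and at 10.2 and 13.8 CPM after the wash. This was a 2.66-fold decrease, with a log2 FC of -1.41 (SE 0.170, adjusted p = 0.00116, edgeR). In the annotation 491 bases of its exons overlap *Sphk2* on the other strand, and the strand setting of the counting is not given in the sources used here. *Sphk2* itself had a log2 FC of 0.03 (SE 0.105). *Tef*, on chromosome 15 from 81632851 to 81657291, stood at 142.8 and 130.3 CPM under GSI and at 72.1 and 70.1 CPM after the wash, and 193 bases of its exons overlap *Gm17597* on the other strand. Its log2 FC of -0.94 (SE 0.0952, adjusted p = 0.000703, edgeR) missed the fold threshold by little and was -1.14 under total-count scaling. *Hlf*, the third gene of the family, had 1 count in GSI replicate 1 and 0 counts in the other 3 libraries. *Nfil3*, the repressor at the D-box, stood at 49.0 and 43.8 CPM under GSI and at 44.5 and 59.0 CPM after the wash, with a log2 FC of 0.15 (95% interval -0.23 to 0.52). The ratio of *Nfil3* to *Dbp* counts was 1.57 and 1.37 in GSI and 4.35 and 4.26 upon washout.

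The libraries of the conditions overlapped for both REV-ERB genes, and neither passed the test. *Nr1d1* (REV-ERBα), on chromosome 11 from 98629246 to 98636647, stood at 6.66 and 8.29 CPM under GSI and at 8.23 and 10.1 CPM after the wash. The interval of its log2 FC, 0.30, ran from -0.22 to 0.81 (adjusted p = 0.282, edgeR). After correcting for the GC content and length of exons its log2 FC was 0.56 (adjusted p = 0.0529), and with the replicate number as a block as well it was 0.57 (adjusted p = 0.00522). Its exons overlap those of *Thra* on the other strand over 263 bases, and the log2 FC of *Thra* was -0.08 (SE 0.124). *Nr1d2* (REV-ERBβ), on chromosome 14 from 19036568 to 19071641, stood at 31.6 and 25.2 CPM under GSI and at 33.1 and 23.4 CPM after the wash. In both conditions replicate 1 was the higher one, and the log2 FC was 0.00 with a 95% interval from -0.48 to 0.48. A change of 2-fold in either direction lies outside both intervals, but changes up to their bounds do not. Both intervals come from the fit without correction, and the SE of *Nr1d1* after the GC content and length correction was 0.199. The statement on 2-fold changes therefore does not extend to *Nr1d1* in the corrected fit.

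*Arntl*, the core of the positive arm, lies on chromosome 7 from 120350979 to 120457636. It stood at 111.7 and 117.8 CPM under GSI and at 72.9 and 71.3 CPM after the wash, a 1.59-fold decrease with tight replicates and a log2 FC of -0.67 (SE 0.0895, adjusted p = 0.00165, edgeR). Its partner *Clock* stood at 71.0 and 59.7 CPM under GSI and at 57.7 and 41.7 CPM after the wash. *Clock* did not pass the test, with a log2 FC of -0.39 and a 95% interval from -0.81 to 0.03 (adjusted p = 0.105, edgeR), but its adjusted p-value was 0.00592 without washout replicate 1 (log2 FC of -0.65). The ratio of *Arntl* to *Clock* overlapped between the conditions, at 1.57 and 1.97 in GSI and 1.26 and 1.71 upon washout. The paralogs that can replace these genes were nearly silent. *Npas2* had 1 count in washout replicate 1 and 0 counts elsewhere, and *Arntl2* gave 3 and 1 reads under GSI and 9 and 1 after the wash.

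Between genes, levels were compared as CPM per kb of exon, with exon lengths from GENCODE vM1 on mm9. In GSI the order was *Arntl* (mean of 39.2 CPM per kb), *Tef* (17.4), *Dbp* (10.7), *Cry1* (9.85), *Cry2* (8.12), *Nr1d2* (5.66), *Per1* (3.71), *Per3* (2.64), *Nr1d1* (2.39) and *Per2* (2.13). Neighbors in this order did not overlap between replicates except *Per3* with *Nr1d1* and *Nr1d1* with *Per2*. Upon washout *Arntl* was still the first with 24.6 CPM per kb, followed by *Cry1* (12.6), *Tef* (9.04), *Cry2* (6.18), *Nr1d2* (5.64), *Dbp* (4.09), *Nr1d1* (2.94), *Per2* (1.43), *Per1* (1.37) and *Per3* (1.03). Here *Cry2* overlapped *Nr1d2*, *Nr1d2* overlapped *Dbp*, and *Per2* overlapped *Per1*. *Dbp* thus moved from the third to the sixth place and *Per3* to the last. The aligner allowed introns of up to 3000 bases. Of the introns of the longest annotated transcript, 2 of 3 in *Tef*, 3 of 7 in *Nr1d2*, 6 of 20 in *Arntl* and 3 of 11 in *Cry2* are longer. In *Cry1* 3 of 12 are longer, in *Per3* 4 of 20, in *Per2* 4 of 22, and in *Per1*, *Dbp* and *Nr1d1* 0. Reads across long introns may thus be missing from the levels of some genes.

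**Figure D3:**
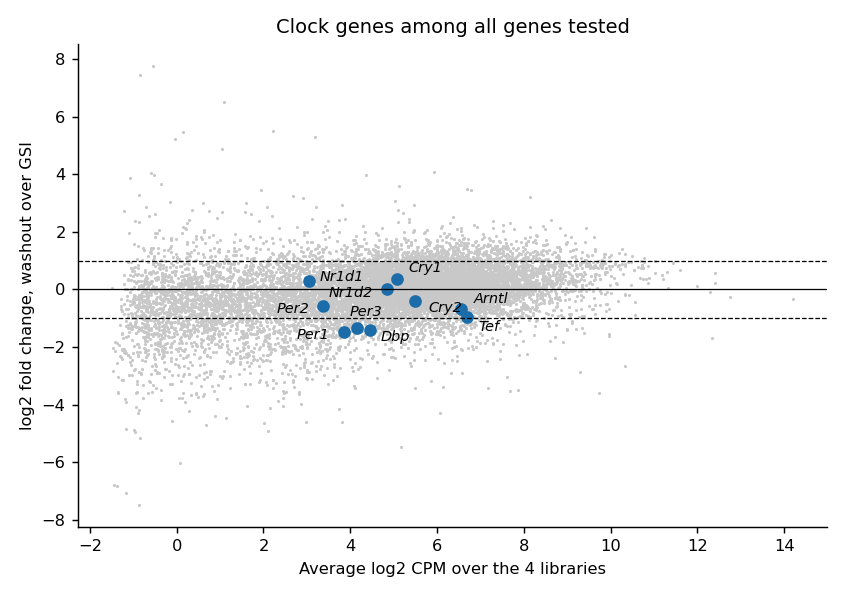
log2 FC of washout over GSI (vertical axis) against the average log2 CPM over the 4 libraries (horizontal axis) for all 12266 genes tested (gray) and the 10 clock genes (blue), with dashed lines at log2 FC of 1 and -1. The clock genes lie at middle levels, with *Per1*, *Per3* and *Dbp* below the lower line and inside the cloud of other genes.

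Of 19 other genes of the clock machinery, 13 could be tested. Their median log2 FC was -0.15, beside -0.01 over all genes tested. Past both thresholds, *Rora* and *Bhlhe40* were lower and *Timeless* was higher, where 11.7% of all genes were lower and 7.74% higher. With the adjusted p-value alone, *Csnk1e* was lower as well, and *Cipc* and *Nono* were higher. By that threshold 25.4% of all genes were lower and 27% higher. After the GC content and length correction *Csnk1e* was at -0.12 (adjusted p = 0.211, edgeR), and leaving out GSI replicate 1 or 2 gave *Nono* an adjusted p-value of 0.0671 or 0.0644. The remaining 7 did not pass. The 6 genes not tested, *Npas2*, *Arntl2*, *Hlf*, *Bhlhe41*, *Rorb* and *Fbxl21*, had at most 10 counts in any library.

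The largest change among these and the 10 clock genes was that of *Rora*, which encodes a nuclear receptor that opposes REV-ERB at the same elements. It stood at 198.0 and 139.0 CPM under GSI and at 27.0 and 17.6 CPM after the wash, a 7.44-fold decrease with a log2 FC of -2.90 (SE 0.251, adjusted p = 0.000484, edgeR). *Bhlhe40* (DEC1), a repressor at E-boxes, had 29.2 and 30.4 CPM under GSI but only 8.52 and 19.5 CPM after the wash. Its log2 FC was -1.14 (adjusted p = 0.0352, edgeR), and it was -0.60 without washout replicate 1, with adjusted p-values of 0.0697 and 0.0643 without GSI replicates 1 and 2. *Ciart*, a repressor of CLOCK and ARNTL, stood at 3.88 and 2.54 CPM under GSI and at 3.97 and 6.70 CPM after the wash, with a 95% interval of the log2 FC from -0.19 to 1.53.

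*Timeless*, which interacts with clock proteins and is a component of the replication fork, stood at 134.8 and 156.3 CPM under GSI and at 338.6 and 349.9 CPM after the wash. Its log2 FC was 1.24 (SE 0.112, adjusted p = 0.000534, edgeR). The kinases of the PERIOD proteins, casein kinase 1δ and 1ε, had log2 FC of -0.15 for *Csnk1d* (adjusted p = 0.217, edgeR) and -0.50 for *Csnk1e* (adjusted p = 0.00493). Among the genes that act on the ubiquitin of clock proteins, *Btrc* had a log2 FC of -0.31, *Fbxw11* of 0.03 and *Usp2*, which removes ubiquitin, of -0.41. None of these 3 passed the test, although the adjusted p-value was 0.00408 for *Btrc* and 0.00093 for *Usp2* with the replicate number as a block, and 0.00559 for *Usp2* without washout replicate 1 (log2 FC of -0.65). *Cipc*, an inhibitor of CLOCK, was higher by 0.61 and *Nono*, a partner of PER proteins, by 0.53 on the log2 scale, each in both washout libraries.

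**Figure D4:**
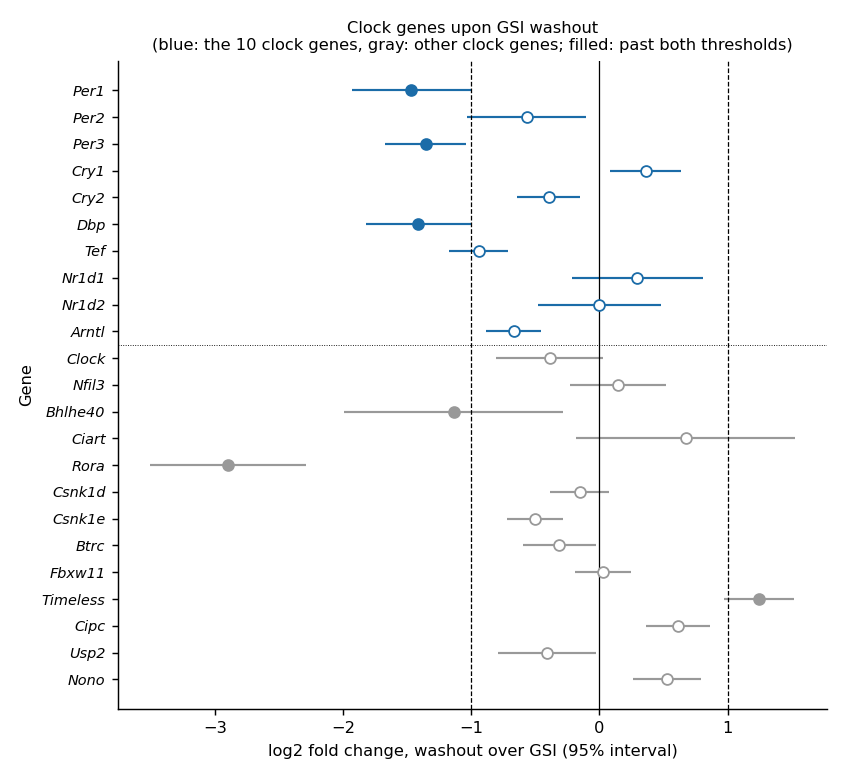
log2 FC of washout over GSI with 95% intervals from edgeR for the 10 clock genes (blue) and 13 other clock genes (gray), filled where past both thresholds, with dashed lines at 1 and -1. *Per1*, *Per3*, *Dbp*, *Bhlhe40* and *Rora* are filled on the left and *Timeless* on the right.

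Of 6 genes known as outputs of the clock, *Cdkn1a*, a cell cycle inhibitor, was lower past both thresholds, from 118.1 and 124.3 CPM under GSI to 22.2 and 18.5 CPM after the wash (log2 FC of -2.56). *Wee1*, a kinase that holds back mitosis, was higher by 0.82, *Nampt*, an enzyme of NAD synthesis, by 0.95 and *Ccrn4l*, which encodes Nocturnin, by 0.48 on the log2 scale, each with an adjusted p-value under 0.05. For *Ccrn4l* this did not hold under total-count scaling (0.28, adjusted p = 0.136, edgeR), with thinned counts (0.0577), or without GSI replicate 1 (0.107), GSI replicate 2 (0.0919) or washout replicate 1 (log2 FC of 0.32, adjusted p = 0.121). *Alas1* (-0.05) and *Por* (-0.11) did not pass, but *Por* was higher after the GC content and length correction (0.23, adjusted p = 0.0290). The output genes thus went in both directions, as did all genes tested. Of those, 6195 had a log2 FC below 0 and 6071 one above 0. Among all genes tested 11.7% were lower past both thresholds, and 27% were higher by the adjusted p-value alone.

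Genes that mark the inputs to *Per1* and *Per2* are given as measured. Of 10 genes of the cAMP and serum response, 8 could be tested. Past both thresholds 5 were lower, where 11.7% of all genes tested were. All 8 had a log2 FC below 0, where 6195 of the 12266 genes tested had one. The summed level of the 10 genes was 210 and 119 CPM under GSI and 79.3 and 66.4 CPM after the wash, so that the GSI libraries differed from each other. *Fos* stood at 13.5 and 3.56 CPM under GSI and at 0.705 and 0.372 CPM after the wash, and *Junb* had 64.1 and 37.2 against 11.5 and 12.6 CPM. The log2 FC of *Per1* was -1.29 without GSI replicate 1, and also -1.29 without washout replicate 1. *Crem* and *Sik1*, which respond to cAMP, did not pass the test, with log2 FC of -0.08 and -0.55. Of 6 glucocorticoid response genes, 4 could be tested. *Tsc22d3* fell past both thresholds, from 72.2 and 71.4 to 21.5 and 31.4 CPM. *Ddit4* was lower by the adjusted p-value alone (log2 FC of -0.92), where 25.4% of all genes tested were. *Fkbp5* stood at 588.5 and 599.2 CPM under GSI and at 747.4 and 726.1 CPM after the wash (adjusted p = 0.0509, edgeR). The part of these responses in the decrease of *Per1* was not tested.

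**Figure D5:**
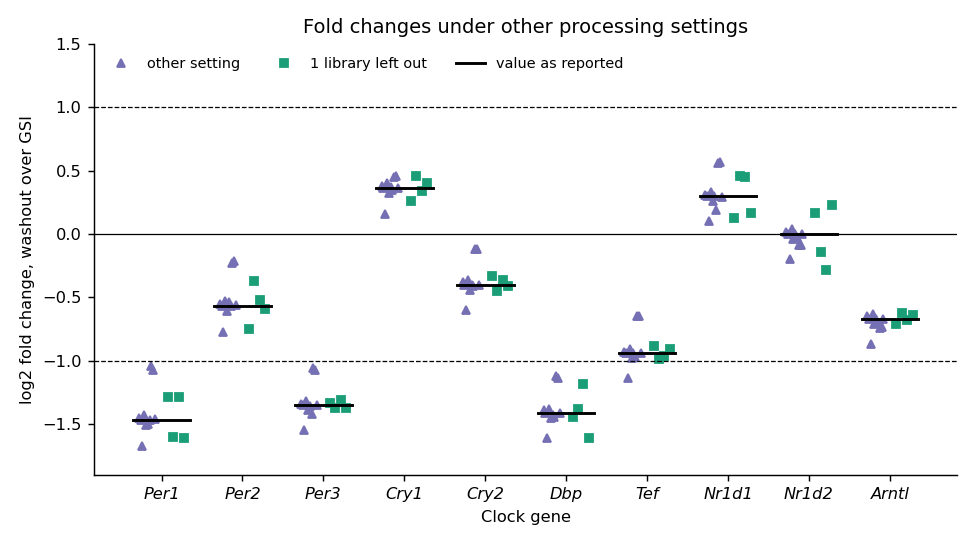
log2 FC of each clock gene as reported (black bar), under 10 other processing settings (violet triangles) and with 1 library left out (green squares), with dashed lines at 1 and -1. The points of *Per1*, *Per3* and *Dbp* stay below -1, and those of *Nr1d2* lie on both sides of 0.

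Across the 16 other settings, *Per1* lay between -1.67 and -1.04 on the log2 scale, *Per3* between -1.55 and -1.06 and *Dbp* between -1.61 and -1.12. The values closest to the threshold came from correcting for the GC content and length of exons, under which the median of the 10 genes was -0.44. When tested against a log2 FC of 1 instead of 0 (glmTreat in edgeR), the adjusted p-value was 0.0786 for *Per1*, 0.0558 for *Per3* and 0.0781 for *Dbp*. A decrease of more than 2-fold was thus not shown for any of the 3. In simulated data glmTreat recovered only 49 of 200 genes with a log2 change of 1.5, so that it missed most changes of this size there. Only those 200 genes were changed, while 2387 genes were past both thresholds here. The recovery of glmTreat in these data is therefore not known. After the GC content and length correction, *Per2* (-0.23, adjusted p = 0.292) and *Cry2* (-0.12, adjusted p = 0.332) of the 10 genes no longer passed the edgeR test, while *Tef* (-0.65) and *Arntl* had an adjusted p-value under 0.05 in every setting other than glmTreat.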

How the data were processed

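Reads were trimmed by the authors and mapped with HISAT2 2.2.1 to the mouse build mm9, allowing 1 alignment per read and introns of up to 3000 bases, and were counted per gene with summarizeOverlaps. The libraries were made with a stranded kit that depletes ribosomal RNA. What the authors deposited are unnormalized read counts of genes, 1 column per library. Overlap mode and strand setting of the counting are not given in the sources used here. Conditions and replicates were taken from the labels.

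The test was that of edgeR 4.0.16 (R 4.3.3) by quasi-likelihood, after filterByExpr and TMM and without covariates, with Benjamini-Hochberg adjustment over all genes tested. The SE of a log2 FC is its value divided by the square root of F. Tested on simulated data of this comparison with 200 changed genes (log2 change of 1.5, 12141 genes tested), it recovered 167 and made 3 false calls. Positions and exon lengths came from GENCODE vM1 (mm9), where 20641 of 24391 symbols matched 1 gene. *Ciart* and *Cipc* had no match. Limits of 3 counts and all intervals cover counting error or replicate spread only.

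The members and gene lists were chosen with earlier results of these data known. Genes left out of the list of other clock genes, which stayed in the fit, are not reported here. Named are all 10 clock genes, the tested genes of the list of other clock genes, and, from other lists, the genes past both thresholds with the largest rise and fall or any gene where a list holds 10 or fewer. Pairs of genes for ratios were chosen after their values were seen. *Sphk2* and *Thra* were added for their overlap. Alternatives were DESeq2 1.42.0, RLE or total-count scaling, a block for the replicate number, thinning to the depth of the smallest library, a filter of 10 counts in every library or of only 1 count in all, correcting for the GC content and length of exons with and without that block (10962 genes, 89.4% of those tested), the adjusted p-value alone, glmTreat, a prior count of 2, and leaving out each library. In the last, the lone library of a condition is assumed to vary like the others.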

Additional observations from a re-analysis of the deposited data

How the results depend on the processing

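Of 174 recomputed counts and medians of the gene lists, 147 stayed within 1.5 times their count or within the replicate SD of the median (0.033). Counts that were 0 and stayed at 0 are among them. Only a median could change sign, since a count has none, and no median did. The number of clock genes lower past both thresholds was 3 with each library left out and in every other setting except total-count scaling, with 4 (*Tef* added), the adjusted p-value alone, with 7 lower and 1 higher, and glmTreat, with 0. With 1 library left out, 0 clock genes were higher, and the median log2 FC of the 10 genes ran from -0.73 (without GSI replicate 1) to -0.54 (without GSI replicate 2). This median was -0.82 under total-count scaling, which moved the median of all genes to -0.21, -0.58 with no filter beyond 1 count, -0.66 with at least 10 counts in every library, -0.44 after the GC content and length correction and -0.43 with that correction and the replicate block. The scaling also set the share of higher among all called genes, 39.8% with TMM and 23.0% with the total count. Other clock genes higher past both thresholds numbered 3 with the adjusted p-value alone and 0 with glmTreat, and 1 to 2 with a library left out, where *Ciart* was added without washout replicate 1 (log2 FC of 1.04). Other clock genes lower numbered 1 with glmTreat and 1 to 3 with a library left out, the call of *Bhlhe40* being lost without GSI replicate 1, GSI replicate 2 or washout replicate 1. Output genes higher numbered 3 with the adjusted p-value alone and 0 to 1 with a library left out, where *Nampt* was added without GSI replicate 2 (1.01) and without washout replicate 1 (1.02). Of the cAMP and serum genes, 2 were lower with at least 10 counts in every library, which left 5 to be tested, 3 with glmTreat and 3 to 7 with a library left out, with 3 without GSI replicate 1. Of the glucocorticoid genes, 2 were lower under total-count scaling and with the adjusted p-value alone, 0 with glmTreat, and 1 to 2 with a library left out, with 2 without washout replicate 2.

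Of 460 recomputed values of single genes, 21 changed sign, all of genes that had not passed the test as reported. *Nr1d2* was -0.20 under total-count scaling, -0.04 with at least 10 counts in every library, -0.02 with thinned counts, -0.09 after the GC content and length correction with and without the block, and between -0.28 and 0.23 with a library left out. *Nfil3* was -0.05 under total-count scaling and -0.05 to 0.35 with a library left out. *Csnk1d* was 0.14 after the GC content and length correction with and without the block, *Por* was 0.23 in both, and *Alas1* 0.16 without and 0.18 with the block. *Fbxw11* was -0.17 under total-count scaling and -0.01 with at least 10 counts in every library. With a library left out, *Alas1* lay between -0.14 and 0.04 and *Fbxw11* between -0.03 and 0.09. The cause of these changes was not tested.

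The labels give both conditions replicates 1 and 2 without saying that a number marks a shared culture or day. Deviations of same-numbered libraries from their condition means correlated at 0.497 over the genes tested. Over genes with a mean of at least 100 counts the correlation was 0.609. With 2 pairs this does not show pairing. With the replicate block 3 clock genes were lower and 0 higher, their median was -0.60 and *Nr1d2* was 0.00, and *Clock* (-0.40, adjusted p = 0.000277 in edgeR), *Ciart* (0.56, 0.0486), *Btrc* (-0.32, 0.00408) and *Usp2* (-0.41, 0.00093) were under 0.05. Together with the GC content and length correction, the block also put *Nr1d1* (0.57, 0.00522) and *Nfil3* (0.27, 0.0438) under 0.05. Under total-count scaling *Clock*, *Csnk1d*, *Btrc*, *Usp2* and *Por* were lower by the adjusted p-value, and with no filter beyond 1 count *Clock*, *Ciart* and *Usp2* were under 0.05, as was *Btrc* with at least 10 counts in every library. Depth limits the genes at under 10 counts, and with 2 libraries a condition small changes such as those of *Per2*, *Cry1*, *Cry2* and *Ccrn4l* depend on single libraries.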
